A study of Mus musculus with 8 samples.

Results

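The proteins of the cytosolic ribosome are encoded by one of the most abundant classes of messenger RNA in mammalian cells. They were taken here as the gene names that match Rpl or Rps with a number, together with Rpsa, Rplp0, Rplp1, Rplp2 and Fau, summed over rows of the same name and with a mean of at least 5 FPKM (fragment counts scaled to transcript length and library size) over the 8 libraries. Of 39290 gene names, 85 matched and 81 reached that minimum, 33 of the small (40S) subunit and 48 of the large (60S) subunit. The 4 names below it were Rpl3l (0.905 FPKM), Rpl39l (0.134 FPKM), Rpl32l (0.0710 FPKM) and Rpl10l (listed at 0), and the lowest member above it was Rpl7l1 at 27.1 FPKM. The libraries were made from mouse lung RNA, 4 titled model and 4 titled high dose. By its title the series concerns mice with idiopathic pulmonary fibrosis, in which scar tissue replaces lung, and Platycodin D, a plant saponin. The sources used here give no strain, age, dose, untreated group or way of making the model. They do not say that replicates are different animals either, so the p-values below describe library-to-library spread, which could be technical. The column codes of the model libraries carry the letter H and those of the high dose libraries the letter M; the titles were followed, and each direction below would turn if they were exchanged.

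Every label set names both lung tissue and a mouse lung fibroblast line. Markers of alveolar type 2 cells, which make surfactant, summed to 10683 to 15848 FPKM in the model libraries and 14302 to 20793 FPKM in the high dose libraries, and fibroblast markers to 288 to 613 and 765 to 1277 FPKM. Rows without a gene name took 50.02% to 65.2% of each library's summed FPKM, and 1 row alone 6.17% to 41.5%. The table held no read counts, so depth was unknown. In bulk tissue, fewer cells of a type and less RNA per cell cannot be told apart.

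Ribosomal protein genes are transcribed together at high rates, because each ribosome needs 1 copy of nearly every protein. Most of their transcripts begin with a terminal oligopyrimidine (TOP) tract, a cytosine followed by a run of C and T bases, through which the TOR kinase pathway controls their translation. The RNA-binding protein Larp1 represses the translation of TOP transcripts and also stabilises them. Some of the proteins, Rpl5 and Rpl11 among them, also have roles outside the ribosome.

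The bases around the annotated starts were searched for such a run. RefSeq (GRCm38.p6) promoter windows were found for 61 of the 81 genes. The run was a cytosine at the first annotated base followed by at least 4 bases that are each C or T. It was read only on the strand with the sequence of the transcript. It was present in 14 of the 61 (23.0%), in 0 of 69 mitochondrial ribosomal protein genes, and in 813 of 27025 genes of the promoter table (3.01%). Allowing the run to begin within 15 bases on either side of the start, 43 of 61 (70.5%) held it, against 36 of 69 mitochondrial ribosomal protein genes (52.2%), 47.4% of the genes tested and 44.9% of all genes of the promoter table. The following stretches of 28 bases, 10 before the start and 18 from it, are shown for some of the genes whose values are described below. The run from the first base is in capitals where there is one. The choice favours genes with the run, which only 14 of the 61 have. Rplp0, Rpl5, Rpl11, Rpl18, Rpl39 and Rps12, also described below, have no run at the annotated start and are not shown. Rps27l has 2 annotated starts, neither with such a run, and the upstream one is shown. Annotated starts can be off by several bases, and a stretch in lower case says only that the run does not begin at that base.
Rps6 (chr4:86857350-86857377, minus strand): gaagtcgggcCTCTTTTTCgtgacgcct
Fau (chr19:6057937-6057964, plus strand): gcccccacttCTTCCTCTTTCTTgactc
Rplp2 (chr7:141447641-141447668, plus strand): cagcgtcttcCTTTCgccgccggacgcc
Rps18 (chr17:33955648-33955675, minus strand): cacttccgctCTCTCTTCCacaggaggc
Rps27 (chr3:90213631-90213658, minus strand): cgctttcgctCCTTTCCggcggtgacga
Rps27l (chr9:66946076-66946103, plus strand): cctccccgccgcctctatcccggaagtt
Rpl41 (chr10:128549151-128549178, minus strand): gggccggctcggaagtgacgacaccgag

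The 81 genes were high in every library. Their mean levels over the 8 libraries ran from 27.1 to 1045 FPKM with a median of 360.2 FPKM. Of these genes, 75 had a mean over 100 FPKM and 24 a mean over 500 FPKM, and 35 were among the 100 gene names of highest mean. Their summed level was 32168, 31028, 30627 and 33104 FPKM in model replicates 1 to 4 and 28337, 29951, 30823.5 and 35491 FPKM in high dose replicates 1 to 4. The high dose libraries held both the lowest and the highest sum, and the 4 model sums lay between them. The group means were 31732 ± 1124 FPKM in model and 31151 ± 3071 FPKM in high dose (SD, n = 4 each). As a share of the FPKM of rows with a gene name, the genes took 7.49% ± 0.464 in model and 7.33% ± 0.431 in high dose (SD, n = 4 each). The difference between the means was smaller than the SD of either group on these scales. As a share of all rows, unnamed ones included, it was larger than either SD, with 3.43% ± 0.372 in model and 2.99% ± 0.403 in high dose (SD, n = 4 each).

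**Figure D1:**
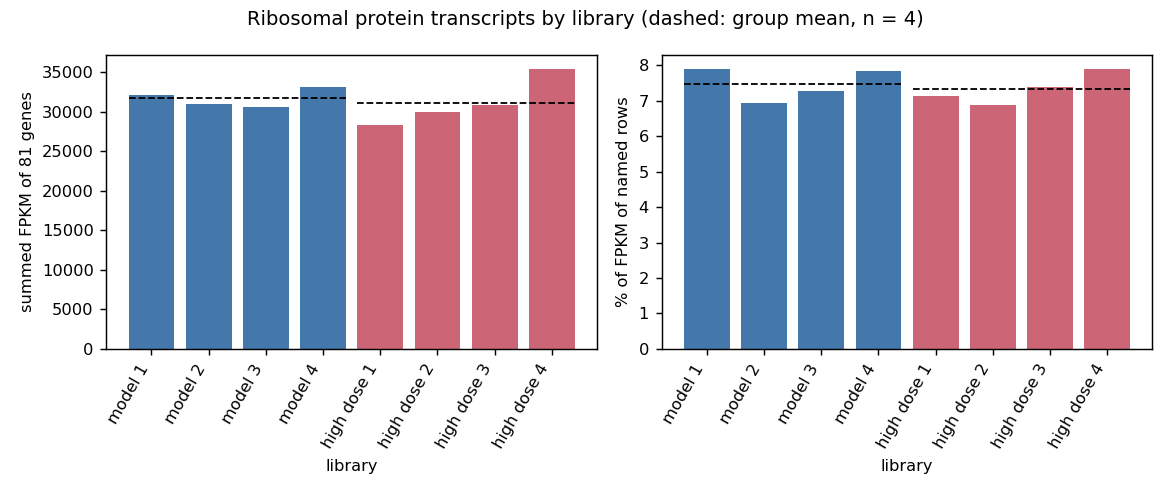
Summed FPKM of the 81 genes (left) and their share of the FPKM of rows with a gene name in % (right) by library, model in blue and high dose in red, with dashed lines at group means (n = 4). The high dose libraries span 28337 to 35491 FPKM and enclose the model range of 30627 to 33104 FPKM.

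Both subunits kept a near constant proportion. The ratio of summed small-subunit to summed large-subunit FPKM was 0.811 ± 0.00915 in model and 0.798 ± 0.0134 in high dose (SD, n = 4 each), with a range over all libraries from 0.779 in high dose replicate 3 to 0.816 in model replicate 4. The libraries moved as a whole: high dose replicate 4 held the highest value of 44 of the 81 genes and the lowest of 0, high dose replicate 1 held the lowest value of 36 and the highest of 0, and model replicate 4 held the highest value of 19. The median deviation of a gene from its own mean was 0.17 on the log2 scale in high dose replicate 4 and -0.12 in high dose replicate 1. On the FPKM scale the library that stood highest and the library that stood lowest were therefore in the same group. The summed FPKM of all rows with a gene name was also highest in high dose replicate 4 (449839 FPKM) and lowest in high dose replicate 1 (396864 FPKM). How much of the shift belonged to the library as a whole was not tested. As a share of rows with a gene name, the highest and the lowest library were in different groups. There the highest was model replicate 1 (7.91%) and the lowest high dose replicate 2 (6.88%).

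**Figure D2:**
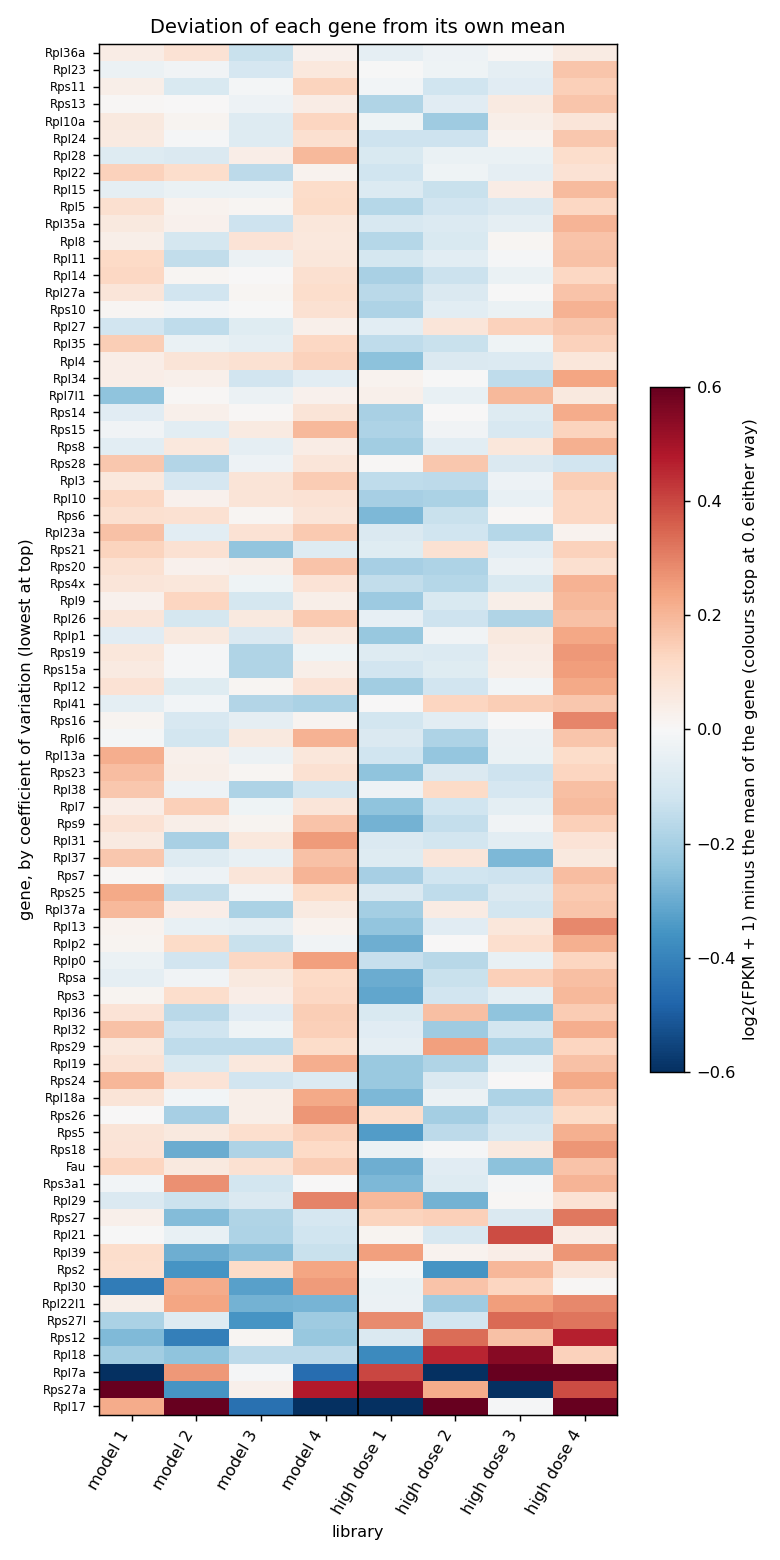
Log2(FPKM + 1) of each of 80 of the 81 genes minus its own mean over 8 libraries, genes ordered by coefficient of variation with the lowest at the top, model libraries left of the line and high dose libraries right of it. High dose replicate 4 is mostly red and high dose replicate 1 mostly blue, and the strongest colours are in the last rows, Rpl7a, Rps27a and Rpl17.

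Levels in the high dose libraries were then set against those in the model libraries, gene by gene. None of the 81 genes passed the limma test at an adjusted p under 0.05 (Benjamini-Hochberg over 14418 genes), with 0 higher and 0 lower, whereas 10.1% of all genes tested were called, 5.86% higher and 4.27% lower. At an unadjusted p under 0.05 there were 5 of 81 (6.17%), all with a higher mean in high dose, against 25.6% of all genes, or 15.8% in that direction. The 4 and 4 libraries did not overlap in 1 of the 81 genes (1.23%), with high dose above, against 17.7% of all genes, of which 11.3% had high dose above and 6.46% below. The median log2 fold change (log2(FPKM + 1) in high dose less that in model) was -0.04 over the 81 genes and 0.04 over all genes tested. It was -0.04 for the 33 small-subunit and -0.04 for the 48 large-subunit genes, 51 of the 81 values being negative and 30 positive.

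The intervals bound how large a change could be. For 71 of the 81 genes the 95% interval of the log2 fold change lay within 0.5 in either direction, as it did for 53.8% of all genes tested, and for 78 it lay within 1. The median distance from the estimate to either end of the interval was 0.25. Estimates ran from -0.45 in Rps27a to 0.51 in Rpl7a, and 74 of 81 were within 0.25 of 0, against 65.5% of all genes. Without high dose replicate 4 the median over the 81 genes was -0.10 with 63 negative values, and without high dose replicate 1 it was 0.01 with 37 negative values, so its sign rested on single libraries.

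**Figure D3:**
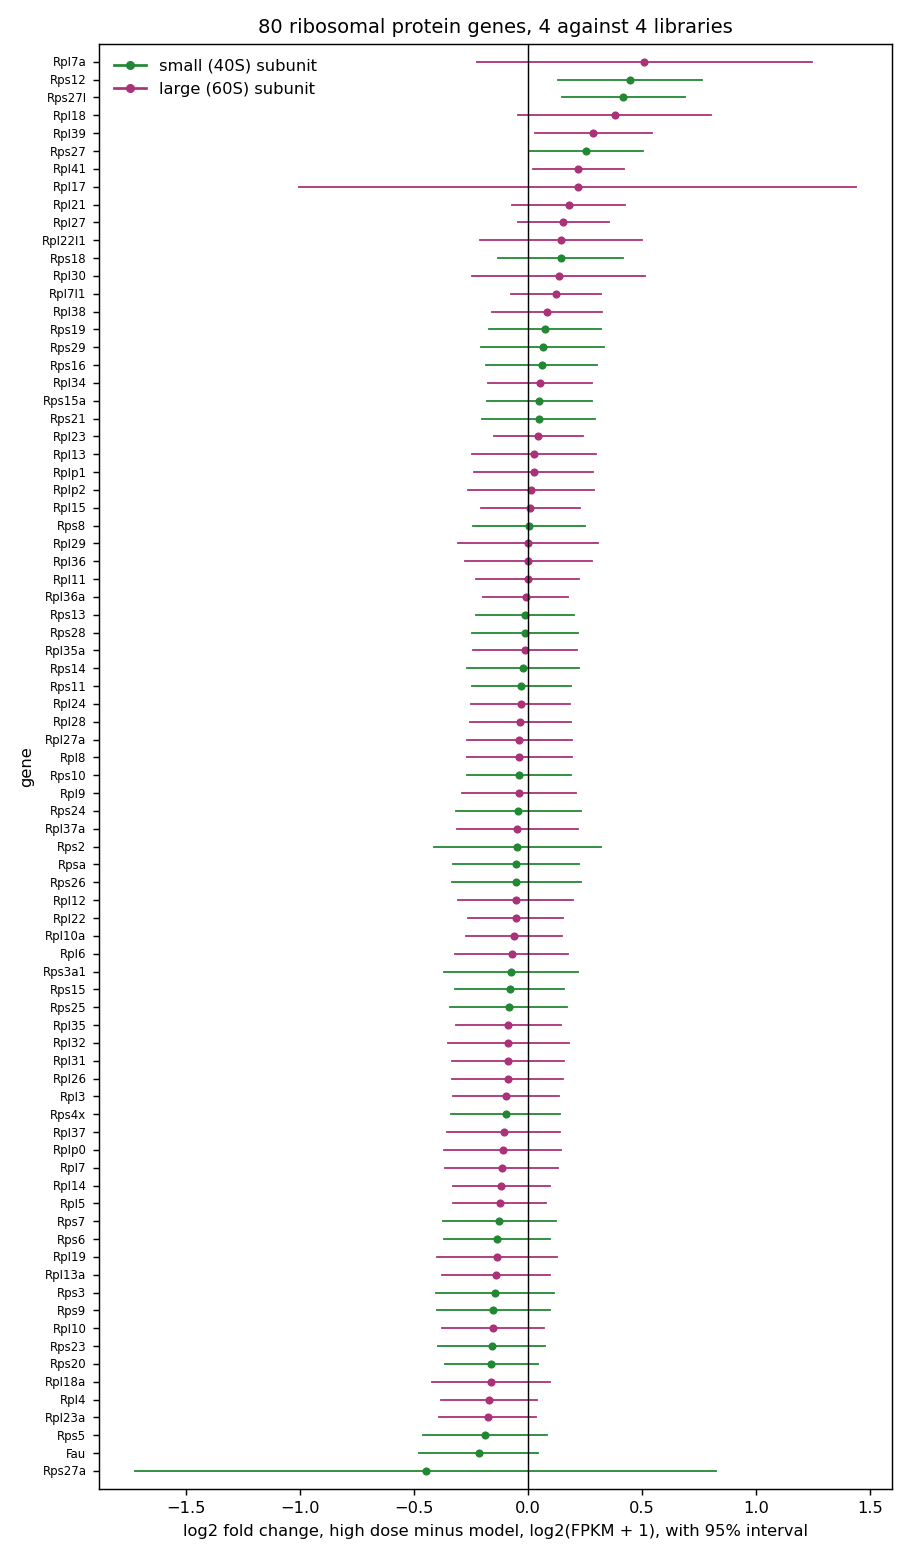
Log2 fold change (high dose minus model, log2(FPKM + 1) scale) of 80 of the 81 genes in order, points with 95% intervals from limma, small-subunit genes in green and large-subunit genes in purple. Most intervals cross 0 and are narrow, while those of Rpl17, Rps27a and Rpl7a are wide.

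The most abundant members were then read gene by gene. Rplp1, a protein of the acidic stalk that recruits elongation factors, had 992, 1083, 980.5 and 1079 FPKM in the model libraries and 890.4, 1027, 1084 and 1224 FPKM in the high dose libraries. The groups overlapped (log2 fold change 0.02 ± 0.12, SE, limma adjusted p = 0.924). Rps14, a protein of the small-subunit platform, had 857, 916, 902 and 947 FPKM and then 784, 899, 851 and 1047 FPKM. Its fold change was -0.02 ± 0.11 (adjusted p = 0.918), again with the high dose range enclosing the model range. Rps3a1, Rpl13, Rps15 and Rps9, the other members of highest level, had means over the 8 libraries of 712 to 817 FPKM and fold changes of -0.15 to 0.03, with adjusted p from 0.434 to 0.920. The high dose range enclosed the model range in Rpl13, whereas the highest value of Rps3a1, Rps15 and Rps9 was in a model library. The remaining stalk proteins were Rplp0, the base on which the stalk dimers sit, and Rplp2, the partner of Rplp1. Rplp0 had 584 ± 65.8 and 539 ± 51.6 FPKM (SD, n = 4 each) and Rplp2 462 ± 32.7 and 469 ± 67.5 FPKM, with adjusted p of 0.592 and 0.966 from limma.

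Genes with roles beyond the ribosome were examined next. Rpl5 and Rpl11 form a particle with 5S ribosomal RNA that binds Mdm2, the ubiquitin ligase of p53, when ribosome assembly is disturbed. Rpl5 had 246, 233, 232 and 249 FPKM in model and 204, 212, 216 and 250.7 FPKM in high dose. Of the high dose libraries 3 lay below the 4 model libraries and 1 above them (-0.12 ± 0.09, adjusted p = 0.440). Rpl11 had means of 267 ± 21.5 and 266 ± 23.7 FPKM in model and high dose (SD, n = 4 each), and its fold change was 0.00 on the log2 scale (limma adjusted p = 0.991).

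Rps6, the ribosomal substrate of S6 kinase downstream of TOR, whose start carries the run of 9 C or T bases printed above, had 456, 454, 431 and 449 FPKM in model and 353, 388, 429 and 466 FPKM in high dose. The lowest 3 values were all high dose and the highest was high dose too (-0.14 ± 0.10, adjusted p = 0.459). Fau, made as a fusion of a ubiquitin-like peptide with a small-subunit protein, had 585, 556, 570 and 594 FPKM in model and 436, 510, 450 and 603 FPKM in high dose. It had the largest negative value among the genes with a coefficient of variation under 20% (-0.22 ± 0.12, adjusted p = 0.282). Rps27a, a fusion of ubiquitin with a small-subunit protein, had 337, 156, 204 and 278 FPKM in model and 287, 233, 48.2 and 263 FPKM in high dose. High dose replicate 3 alone was far below the others (-0.45 ± 0.56, 95% interval -1.72 to 0.82, adjusted p = 0.668). Rpl36al and Rack1 also encode ribosomal proteins but do not match the naming pattern. Their means were 173 ± 17.3 and 390 ± 45.7 FPKM in model and 175 ± 16.4 and 360.1 ± 34.5 FPKM in high dose (SD, n = 4 each), with limma adjusted p of 0.946 and 0.602.

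Several ribosomal proteins exist as pairs of a common form and a paralog. Rps27l, the paralog of Rps27 and a known transcriptional target of p53, had 82.8, 89.6, 73.8 and 81.3 FPKM in model and 115, 87.4, 120 and 118 FPKM in high dose. Of the high dose libraries 3 lay above the 4 model libraries and 1, replicate 2, lay within their range. Its log2 fold change was 0.42 ± 0.12 (SE, 95% interval 0.15 to 0.69), and its adjusted p of 0.0601 was the smallest among the 81 genes. It passed in the fits without high dose replicate 2 (0.52, adjusted p = 0.0216) and without model replicate 2 (0.46, adjusted p = 0.0462). With any other single library left out it did not pass. Rps27 itself had 365, 298, 315 and 333 FPKM in model and 392, 394, 336 and 445 FPKM in high dose. The ranges overlapped in 1 library of each group (0.25 ± 0.11, unadjusted p = 0.0483, adjusted p = 0.192). A pair of other p53 targets, outside the naming rule and chosen with their values known, was read beside it. Cdkn1a, a cell cycle inhibitor, had 77.2 ± 44.7 and 88.8 ± 30.3 FPKM (SD, n = 4 each, adjusted p = 0.685), and Mdm2 had 27.5 ± 12.4 and 32.2 ± 6.45 FPKM (adjusted p = 0.622). The log2 fold change was 0.35 for Cdkn1a (95% interval -0.69 to 1.38) and 0.34 for Mdm2 (-0.51 to 1.20). Both intervals hold 0 as well as the estimate of 0.42 for Rps27l, so they are too wide to tell whether these genes changed.

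Among the other pairs, Rpl22 had 81.2 ± 7.33 FPKM in model and 78.0 ± 4.80 FPKM in high dose, and its paralog Rpl22l1, which Rpl22 is known to hold down, 114.5 ± 20.6 and 126.5 ± 20.7 FPKM (SD, n = 4 each, limma adjusted p = 0.759 and 0.621). Rpl3, a core protein near the peptidyl transferase centre, and Rpl10, which joins the large subunit late in its assembly, had fold changes of -0.10 ± 0.10 and -0.15 ± 0.10 (adjusted p = 0.612 and 0.378). The paralogs Rpl39l and Rpl10l, known from testis, reached at most 0.322 FPKM in any library. Rpl7 had -0.12 ± 0.11 and Rpl7l1 0.12 ± 0.09 (adjusted p = 0.562 and 0.438). Rps4x, encoded on the X chromosome, had -0.10 ± 0.11 (adjusted p = 0.616). Rps4l had no entry in the gene name column and was not tested.

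The remaining members with an unadjusted p under 0.05 were Rps12, Rpl41 and Rpl39, of which Rps12 and Rpl41 were named after their values were seen. Rpl41, the shortest ribosomal protein, had 612, 630, 564 and 558 FPKM in model and 638, 695, 705 and 712 FPKM in high dose. It was the only one of the 81 genes whose groups did not overlap (0.22 ± 0.09, 95% interval 0.02 to 0.42, adjusted p = 0.159). Rps12, a small-subunit protein, had 211, 190.8, 256 and 216 FPKM and then 239, 321, 287 and 351 FPKM. The overlap came from model replicate 3 and high dose replicate 1 (0.45 ± 0.14, adjusted p = 0.0805, and 0.55 with adjusted p = 0.0463 without high dose replicate 1). Rpl39, a small protein lining the exit tunnel of the large subunit, had 205, 155, 159 and 173 FPKM and then 226, 193, 195 and 228 FPKM. Model replicate 1 lay within the high dose range (0.29 ± 0.11, adjusted p = 0.154). Rpl18, also named after its values were seen, had 260.0, 254, 269 and 269.6 FPKM and then 229.9, 413, 439 and 331 FPKM. High dose replicate 1 was the lowest of all and the other 3 the highest (0.38 ± 0.19, adjusted p = 0.243, and 0.57 with adjusted p = 0.0340 without high dose replicate 1). Neither Rps12 nor Rpl18 passed with any other single library left out.

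The spread between libraries was small for most members. The coefficient of variation over all 8 libraries had a median of 9.55% and was under 10% in 46 of the 81 genes (56.8%). For the 2801 other genes tested with a mean FPKM in the same range, the median was 13.6% and 28.6% were under 10%. Those genes had a median level of only 47.0 FPKM, so the comparison was repeated, after the data were seen, above the 95th percentile of tested means (85.0 FPKM). There the 76 members had a median of 9.63% with 55.3% under 10%, and 624 other genes up to the highest member, with a median level of 134 FPKM, had 16.3% with 20.4% under 10%. These coefficients include any difference between the groups. The SD within groups, on the log2 scale, had a median of 0.139 for the members. It was 0.163 for the 2801 genes in the same range and 0.180 for all genes tested, a smaller contrast. By coefficient of variation, Rpl36a at 4.87% and Rpl23 at 5.86% were among the steadiest. Rpl36a had 232, 239, 205 and 229 FPKM in model and 217, 220.2, 226 and 233 FPKM in high dose. In contrast, 5 genes had 20% or more: Rpl17 with 51.0%, Rps27a with 40.01%, Rpl7a with 36.6%, Rpl18 with 25.4% and Rps12 with 21.8%.

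Part of this spread was mirrored in other copies of the same sequence. Ribosomal protein genes have many processed pseudogenes, copies of the spliced transcript elsewhere in the genome that can share reads with the parent. Rpl17, a large-subunit protein at the exit tunnel, had 239, 337, 149.8 and 107 FPKM in model and 83.7, 338, 204 and 409.6 FPKM in high dose. Its pseudogene row Rpl17-ps10 had 227, 178, 249 and 341 FPKM and then 314, 139, 215 and 115 FPKM. Where one row was high the other was low, and Rpl17 took from 21.0% of their sum in high dose replicate 1 to 78.0% in high dose replicate 4. The sum of both rows had a coefficient of variation of 10.8%, with means of 457 ± 48.1 FPKM in model and 455 ± 57.7 FPKM in high dose (SD, n = 4 each). A further pseudogene row, Rpl17-ps8, at 38.6 to 60.4 FPKM, was not in this sum. Some other members, such as Rpl14 and Rps6, also had named pseudogene rows. How reads were divided between the copies was not stated in the sources used here, so the levels of Rpl17 alone are uncertain.

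Rps18 and Rps28, both small-subunit proteins, stood on 4 rows each under the same name. The first Rps18 row held 80.7%, 18.8%, 82.5% and 91.1% of the gene's FPKM in model and 91.1%, 89.5%, 91.2% and 9.14% in high dose. Model replicate 2 and high dose replicate 4 had most of it on the second row instead. The summed gene had 164, 126, 136 and 169 FPKM and then 152, 154, 162 and 187 FPKM, with a coefficient of variation of 12.1%. For Rps28 the share of the first row ran from 0.506% in high dose replicate 1 to 74.3% in high dose replicate 3, while the coefficient of variation of the sum was 8.76%. The other members on several rows showed no such exchange: both rows of Rpl10a lay between 73.3 and 107 FPKM and both rows of Rps10 between 144 and 193 FPKM in every library. For Rps27a, Rpl7a, Rps12 and Rpl18 no row was named as a copy, and 6065 rows of the table were identified only as numbered pseudogenes, so whether reads moved to such rows was not tested.

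**Figure D4:**
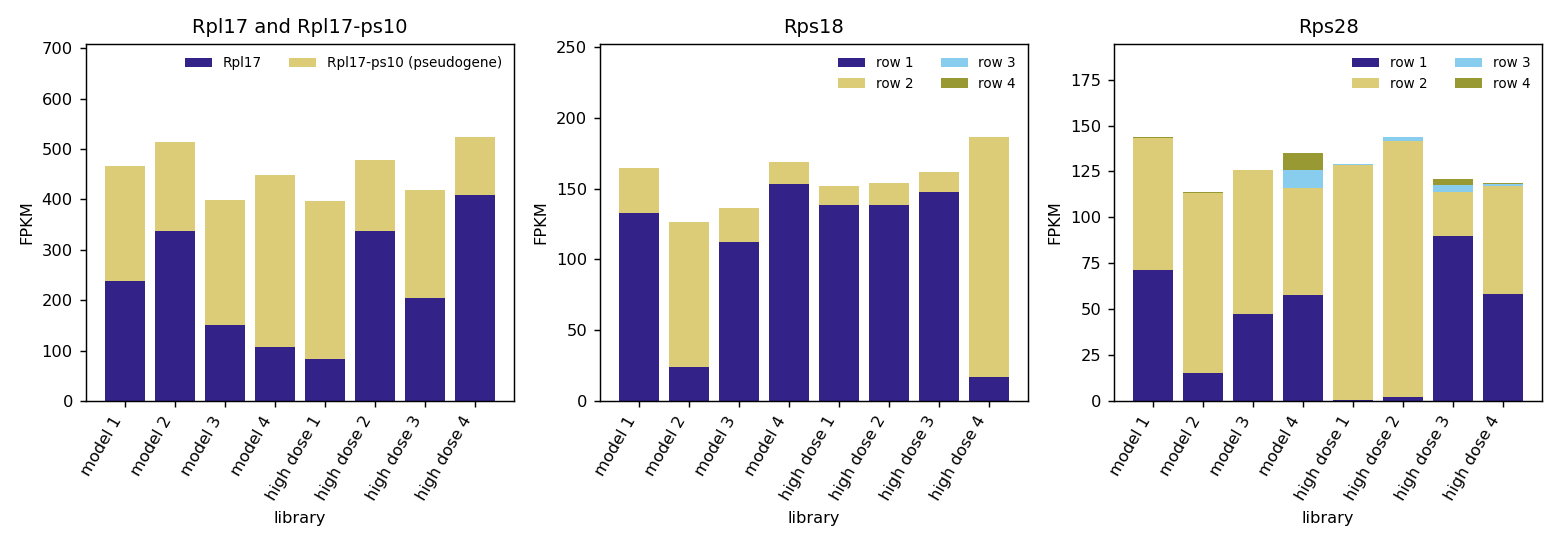
FPKM by library, stacked, of Rpl17 with its pseudogene row Rpl17-ps10 and of the 4 rows that carry the names Rps18 and Rps28. The total heights vary less than the parts: the sum for Rpl17 lies between 398 and 525 FPKM while its own row runs from 83.7 to 409.6 FPKM.

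Transcript length was looked at after the fold changes had been seen, because Rps27, Rps12, Rps27l and Rpl41 are short. The median length of the protein-coding transcripts of a gene in GENCODE M21 was available for all 81 genes and had a median of 696.5 bases, against 2136 bases over all genes tested with a length. Of the 22 shortest genes 14 had a positive log2 fold change (median 0.03), and of the 21 longest 4 did (median -0.07). Across the 81 genes, which share the same 8 libraries and are not independent, Spearman's rho between log2 fold change and length was -0.36 and Pearson's r with log2 length -0.27. Over the 76 genes with a coefficient of variation under 20% they were -0.40 and -0.35, and leaving out 1 library gave rho from -0.44 to -0.26. Over 72 nuclear-encoded respiratory chain subunits, another class of short abundant transcripts, rho was -0.22, and over all genes tested -0.01. Whether library preparation or the length used in FPKM bore on this was not tested.

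**Figure D5:**
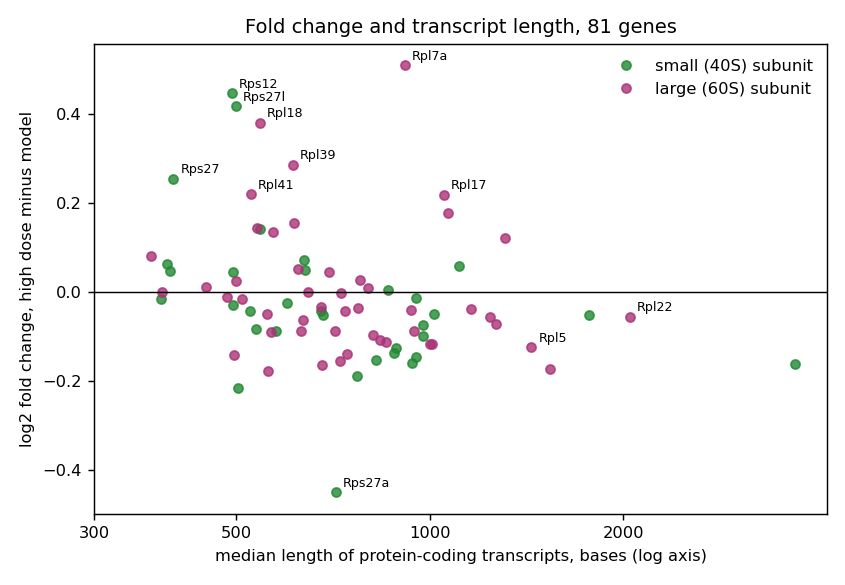
Log2 fold change (high dose minus model) of the 81 genes against the median length of their protein-coding transcripts in bases on a log axis, small-subunit genes in green and large-subunit genes in purple. Values above 0.2 are mostly among genes shorter than the median of 696.5 bases, with Rpl7a and Rpl17 as exceptions.

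The related gene lists were also without a call: other TOP transcripts, ribosome biogenesis, the TOR pathway, mitochondrial ribosomal proteins and the respiratory chain. Over all genes tested, 10.1% were called, 25.6% had an unadjusted p under 0.05 and 17.7% had groups that did not overlap. These shares are to be read beside the counts of each list below. Of 31 other transcripts known or reported to carry a TOP tract, 0 rose and 0 fell by limma, 3 had an unadjusted p under 0.05, and the median log2 fold change was -0.10 with 24 values negative. Eef1a1, the factor that brings aminoacyl-tRNA to the ribosome, had 2504 ± 246 FPKM in model and 2190.1 ± 212 FPKM in high dose (SD, n = 4 each, adjusted p = 0.345). Tpt1, a small growth-linked protein, had 1668, 1687, 1590.4 and 1738 FPKM and then 1325, 1333, 1366 and 1600 FPKM. The highest high dose library lay just above the lowest model library (-0.25 ± 0.10, adjusted p = 0.149). Eif3f and Eif3h, subunits of initiation factor eIF3, had -0.29 ± 0.11 and -0.25 ± 0.10 (adjusted p = 0.143 and 0.149). Pabpc1, the poly(A)-binding protein, had -0.22 ± 0.11 and did not pass either.

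Ribosome biogenesis factors, which make ribosomal RNA and assemble the subunits in the nucleolus, had 0 of 51 called and a median of 0.06, with 5 at an unadjusted p under 0.05. Rrp9, a component of the U3 particle that processes ribosomal RNA, had 9.48, 8.64, 10.9 and 9.49 FPKM in model and 11.2, 11.6, 12.9 and 11.5 FPKM in high dose. These groups did not overlap, as in 17.7% of all genes tested, and the test was not passed (0.27 ± 0.09, adjusted p = 0.0941). Utp14a, of the small-subunit processome, had -0.18 ± 0.08, Bysl, which acts in small-subunit maturation, 0.28 ± 0.12, and Bop1, of large-subunit assembly, 0.26 ± 0.11 (limma adjusted p from 0.171 to 0.189). Myc, which drives ribosome production in growing cells, had 6.96 ± 2.02 and 6.58 ± 0.915 FPKM (SD, n = 4 each, adjusted p = 0.910). Markers of proliferating cells had 0 of 8 called.

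The list of the TOR pathway and of regulators of TOP transcripts had 0 of 30 called and a median of -0.08, with 2 at an unadjusted p under 0.05. Sesn1, a sestrin that restrains TOR complex 1, had 26.4, 23.6, 29.3 and 22.5 FPKM in model and 20.2, 20.3, 20.1 and 20.8 FPKM in high dose. The groups did not overlap, as in 17.7% of all genes tested, and the high dose values were close to each other (-0.30 ± 0.09, adjusted p = 0.0705). Akt1s1, an inhibitory component of the same complex, had 24.9 ± 1.76 and 28.6 ± 1.03 FPKM (SD, n = 4 each, 0.19 ± 0.07, adjusted p = 0.141), also without overlap. Rps6kb2, an S6 kinase, and Larp4b, an RNA-binding protein, had -0.24 ± 0.11 and -0.33 ± 0.15 (adjusted p = 0.198 and 0.204). Larp1, the repressor of TOP translation, had 22.5 ± 2.71 and 20.4 ± 2.29 FPKM, and Mtor, the kinase itself, 5.80 ± 0.841 and 5.62 ± 0.425 FPKM (SD, n = 4 each, adjusted p = 0.504 and 0.892). Changes in kinase activity or in translation are not seen in these values.

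Ribosomal proteins of mitochondria, which serve a separate ribosome in that organelle, had 0 of 79 called and a median log2 fold change of 0.06, with 57 values positive, and 11 at an unadjusted p under 0.05. Mrps6 had 15.6 ± 4.98 and 23.6 ± 3.12 FPKM (0.60 ± 0.19, adjusted p = 0.0801), Mrpl13 30.9 ± 4.56 and 39.5 ± 4.17 FPKM (SD, n = 4 each, adjusted p = 0.0999), and Mrpl53 and Mrps11 had fold changes of 0.25 ± 0.09 and 0.31 ± 0.11 (adjusted p = 0.105 and 0.116). The respiratory chain subunits had 0 of 75 called and a median of 0.07, with 6 at an unadjusted p under 0.05. Among them Ndufa11, Ndufa3 and Ndufa6 of complex I had 0.34 ± 0.11, 0.25 ± 0.09 and -0.26 ± 0.10, and Cox6b2 of complex IV 0.61 ± 0.21 (limma adjusted p from 0.0842 to 0.132). Differences between these lists and the cytosolic ribosomal proteins were not tested.

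Marker levels of several cell types differed between the same libraries. Of 8 neutrophil markers 8 fell, with summed levels of 1062 to 2791 FPKM in model and 112 to 413 FPKM in high dose, and of 8 natural killer markers 7 fell, with 148 to 746 and 41.7 to 61.2 FPKM. Alveolar type 2 markers had 4 of 8 higher, B and plasma cell markers 2 of 8, and fibroblast and alveolar type 1 markers 1 of 8 and 1 of 5, while T cell (8), endothelial (6) and macrophage (6) markers had 0 called. Over all genes tested, 10.1% were called and 25.6% had an unadjusted p under 0.05 by limma. The share of fibroblast markers called, 12.5%, was near the former. All 8 had positive log2 fold changes with a median of 0.90, and 5 had an unadjusted p under 0.05. The part of these cell types in the levels of ribosomal protein transcripts was not tested.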

How the data were processed

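RNA sequencing of 8 mouse lung libraries was deposited as 1 table of FPKM values with 48632 rows. The labels' protocols name Rneasy for RNA and SMARTER for the libraries. The unit was inferred from the deposited values (decimals, column sums that differ between libraries), since the header names none. The submitters' processing notes list mm39. Aligner, counting tool and the treatment of multi-mapped reads are not given in the sources used here. Values were summed per gene name (1734 names lay on several rows, and 7015 rows had none). Genes with a mean of at least 1 FPKM (14418) were fitted as log2(FPKM + 1) with limma 3.58.1 in R 4.3.3, group as the only term, trend and robust settings, two-sided p-values, Benjamini-Hochberg adjustment and a threshold of 0.05. A pseudocount of 1 understates changes of low genes. Standard errors (SE) belong to fitted fold changes. The precision rests on 4 libraries a group. The fit was tested on simulated data. The members and lists were chosen with earlier results of these data known. Named genes were the 6 most abundant members, those of set roles and paralog pairs, the 3 steadiest and 3 most variable, and the 4 of smallest p in each related list; others are marked, and some items are not reported here. Sequences are from RefSeq, GRCm38.p6, and no coordinates were taken from the table. Figures were drawn with matplotlib 3.10.9.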

Additional observations from a re-analysis of the deposited data

Results flagged for a closer look

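Among the 62 groups of 4 values examined, those of the named members and of their summed level, 2 had a sample far from the other 3 by Dixon's test, a rate that chance gives in about 1 in 20 groups. The lowest high dose value of Rps27l, in replicate 2, was 87.4 FPKM against 115 to 120 FPKM in the other 3. The lowest model value of Rps4x, in replicate 3, was 578.5 FPKM.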

How the results depend on the processing

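The 81 ribosomal protein genes had 0 calls in either direction under each alternative that kept all 8 libraries: quantile normalization, median centring, rescaling to the sum of named rows, a minimum mean of 5 FPKM, no filter, pseudocounts of 0.1 and 0.01, no trend, no robust settings, rows not summed, pseudogene rows added, and the replicate block. Their median log2 fold change ran from -0.063 to -0.024 over these. With 1 library left out, 0 to 2 genes were higher (Rps27l without model replicate 2 or high dose replicate 2, Rps12 and Rpl18 without high dose replicate 1) and 0 lower, and the median ran from -0.0983 to 0.00534. Over all genes the same fits gave 364 to 1178 higher and 329 to 970 lower, against 845 and 616; 518 were higher without the filter. Without model replicate 2, which gave the most calls, 2 mitochondrial ribosomal proteins and 3 respiratory chain subunits were higher and 1 gene of the TOR list lower. Without model replicate 4 or high dose replicate 1, 1 mitochondrial ribosomal protein was higher. The ranges over single libraries left out were 0 to 2, 0 to 3 and 0 to 1. The ratio of summed levels, high dose over model, was 0.982, and 0.873 as a share of all rows, of which 1 unnamed row took up to 41.5%. Same-numbered libraries did not deviate together (correlations of -0.0923 to 0.276, and 3 of 8 libraries closest to their own number), so the numbers were not read as pairs; the replicate block gave 486 genes higher and 469 lower. Without counts, depth sets no stated limit here.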

Other observations

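Rows at the margin of the family also varied, and were named after their values were seen. Rpl3l, the striated muscle paralog of Rpl3, had 5.44 FPKM in model replicate 4 and at most 0.890 FPKM in the other 7 libraries. Myh6, a myosin of heart muscle, was at 15.6 FPKM in that library and at 14.6 to 98.3 FPKM in the others, so Rpl3l was not highest where Myh6 was. Rpl37rt, a retrogene copy of Rpl37, had 23.3, 19.1, 19.8 and 22.4 FPKM in the model libraries and 0.538, 24.7, 4.68 and 0.239 FPKM in the high dose libraries. It had 3 high dose libraries below and 1 above all model libraries (log2 fold change -2.43 ± 0.86, SE, limma adjusted p = 0.119). Rps27rt, the corresponding copy of Rps27, had 50.3 ± 20.1 and 46.2 ± 16.7 FPKM (SD, n = 4 each, adjusted p = 0.884).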
